A study of Homo sapiens with 6 samples.

Results

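The kinase RIPK4 and its relatives RIPK1, RIPK2, RIPK3, DSTYK, LRRK1 and LRRK2 were followed in the human melanoma cell line A375, with the question of whether the relatives rise when RIPK4 is lost. The members were chosen by name, as the rows of the deposited gene table that carry exactly 1 of these 7 symbols. Of the 7, 6 were found among the 20851 gene names of the table, all 6 could be tested, and RIPK3 has no row. RNA-seq libraries were made from 3 replicates of A375RIPK4.KO cells, in which RIPK4 had been targeted with the CRISPR/Cas9 system and a lentiviral guide RNA, and from 3 replicates of A375neg cells. A375neg is labelled as a GFP control, and by the study's methods it was made with a guide RNA that matches no human sequence. Whether A375neg is a clone or a pool of cells is not given in the sources used here. All A375RIPK4.KO libraries came from clone #1, so the loss of RIPK4 and the history of this clone cannot be told apart in any comparison below.

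Receptor-interacting kinases join a serine/threonine kinase domain to parts that bind other proteins, and they relay signals from receptors to NF-kB, to MAP kinases or to cell death. RIPK1 and RIPK3 belong to the complexes that form at death receptors and can drive necroptosis, a lytic form of cell death, while RIPK2 serves the bacterial sensors NOD1 and NOD2. RIPK4 carries ankyrin repeats behind its kinase domain, binds protein kinase C isoforms, and is best known for its role in the differentiation of keratinocytes. DSTYK, LRRK1 and LRRK2 have related kinase domains, and the 2 LRRK proteins are large enzymes that also hold a GTPase domain and phosphorylate small RAB GTPases of membrane traffic.

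The relation between these kinases is visible in the coding sequence of their active site, which is shown here because it is the feature the members share. Each line runs from the catalytic loop to the metal-binding motif that opens the activation segment, and capitals mark the codons of these 2 motifs. The sequences were read from the transcript with the longest coding sequence of each gene in GENCODE release 29 on the GRCh38 genome, 5′ to 3′ on the coding strand. RIPK2 was matched in the same way, and its sequence is not printed.
RIPK4: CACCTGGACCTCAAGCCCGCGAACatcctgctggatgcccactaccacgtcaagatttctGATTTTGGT
RIPK1: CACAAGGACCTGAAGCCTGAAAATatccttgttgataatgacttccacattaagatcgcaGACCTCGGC
RIPK3: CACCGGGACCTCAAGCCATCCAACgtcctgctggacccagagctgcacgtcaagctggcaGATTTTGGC
DSTYK: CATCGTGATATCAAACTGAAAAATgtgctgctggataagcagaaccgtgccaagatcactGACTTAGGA
LRRK1: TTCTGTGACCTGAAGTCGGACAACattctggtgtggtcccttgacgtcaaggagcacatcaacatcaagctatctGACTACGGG
LRRK2: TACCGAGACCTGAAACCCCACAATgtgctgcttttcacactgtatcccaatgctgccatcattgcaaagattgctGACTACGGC

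The stretch was 69 bases long in RIPK4, RIPK1, RIPK2, RIPK3 and DSTYK and 84 bases long in LRRK1 and LRRK2. In RIPK4 it lies at chr21:41751231-41756578 on the minus strand and joins exons 2 and 3 of 9. It lies at chr6:3081063-3083099 (plus strand, exons 4 and 5) in RIPK1, at chr14:24338553-24339068 (minus strand, exons 3 and 4) in RIPK3 and at chr1:205150756-205157302 (minus strand, exons 10 and 11) in DSTYK. In LRRK1 and LRRK2 it lies within 1 exon, at chr15:101055041-101055124 and chr12:40340319-40340402, both on the plus strand. When the encoded proteins were aligned locally, RIPK2 was the relative most similar to RIPK4, with 119 identical residues of 238 aligned. RIPK1 had 92 of 252, RIPK3 124 of 361, DSTYK 78 of 221, LRRK1 66 of 197 and LRRK2 73 of 224. LRRK1 and LRRK2 aligned with each other over 1226 residues, of which 387 were identical.

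Between 21882863 and 26694140 reads per library were assigned to genes, and these raw counts are the measurement used throughout. Normalized counts below are raw counts rescaled to a common TMM library size, and A375RIPK4.KO was compared with A375neg by edgeR's quasi-likelihood test over 14443 genes, with Benjamini-Hochberg adjustment over all of them. A gene passed the test at an adjusted p under 0.05. In a principal component analysis, A375RIPK4.KO replicate 2 stood apart from the other A375RIPK4.KO libraries on the second component (14.9% of the variance, a score of −34.6 against 25.7 and 14.1), and its counts ran lower in longer genes, with a slope of −0.0437 log2 units per doubling of exon length. Results that rest on this library are therefore also given without it. The line's lineage showed in SOX10, with 7448 to 10056 raw counts per library, whereas of the pigment cell genes PMEL had 3 to 22, TYRP1 had 1 to 8, TYR, MLANA and DCT have no row, and PRAME is listed only as a scaffold copy. MITF fell (log2 fold change −0.44, adjusted p = 0.0449 by edgeR) and so did S100B (−0.89, adjusted p = 0.036). Of 5 epithelial markers, KRT14 fell from 461 to 607 raw counts per A375neg library to 121 to 158 per A375RIPK4.KO library (log2 fold change −1.75, adjusted p = 3.46e-05), KRT5 and EPCAM stayed at 1 to 11, and KRT1 and DSG3 have no row. The leukocyte gene PTPRC had 0 to 3 counts and CD14 0 to 12, CD3E has no row, and of the endothelial genes PECAM1 went from 21 to 24 counts down to 4 or 5 (−2.12, adjusted p = 0.00556) while VWF and CDH5 had 0 to 14. The part of these marker changes in the results below was not tested.

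RIPK4, the targeted gene, lies on chromosome 21 from 41739369 to 41767106 on the minus strand. Its raw counts were 319, 368 and 404 in A375neg replicates 1 to 3 and 42, 51 and 61 in A375RIPK4.KO replicates 1 to 3. Every A375RIPK4.KO library lay far below every A375neg library, and none of them was empty. After normalization the level was 347.0 ± 32.7 (SD, n = 3) in A375neg and 53.7 ± 7.98 (SD, n = 3) in A375RIPK4.KO. RIPK4 RNA thus fell by 84.5%, a log2 fold change of −2.69 (95% interval −3.06 to −2.31, adjusted p = 1.01e-05 by edgeR), and 15.5% of the A375neg level was left. Counts per gene do not tell whether the remaining transcripts are edited, nor whether fewer cells carry the RNA or each cell holds less of it. By western blot, the study reports complete loss of the RIPK4 protein in the clone sequenced here. The RNA that remained is therefore not a measure of remaining protein.

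RIPK2, the partner of the NOD receptors and the closest of these relatives in sequence, was the other member that passed the test, and it went down too. It lies on chromosome 8 from 89757747 to 89791063 and had 1250, 1445 and 1499 raw counts in A375neg and 792, 983 and 844 in A375RIPK4.KO. The highest A375RIPK4.KO library remained below the lowest A375neg library. Normalized levels were 1334 ± 85.5 (SD, n = 3) and 915.8 ± 95.6 (SD, n = 3), so RIPK2 fell by 31.3%, with a log2 fold change of −0.54 (95% interval −0.75 to −0.34, adjusted p = 0.00319 by edgeR). This is a 1.46-fold decrease, and RIPK2 still passed the test when each library was left out in turn, at −0.63 to −0.49.

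RIPK1, the kinase of the TNF receptor complex, lies on chromosome 6 from 3063991 to 3115187. It had 920, 903 and 834 raw counts in A375neg and 735, 752 and 730 in A375RIPK4.KO, and normalization brought these to 790 to 920 and 740 to 803. The normalized groups overlapped. The log2 fold change was −0.13 (95% interval −0.31 to 0.06, adjusted p = 0.339 by edgeR), so the interval runs from a decrease of 19.3% to an increase of 3.98%.

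RIPK3, the necroptosis kinase, lies on chromosome 14 from 24336021 to 24340045 and has no row, although the table lists genes down to 4 counts in all libraries together. The counts of the genes around it were also low and uneven. Within 200 kb of RIPK3 on either side, 29 other protein-coding genes are annotated and 22 of them are listed, with a median of 20.8 counts per library against 478 for all 14439 listed protein-coding genes. NEDD8, the ubiquitin-like modifier that cullin ligases need, had 3 to 9 counts. PSME1, a proteasome activator subunit, had 12, 127 and 577 counts in A375neg replicates 1 to 3, a 48.1-fold range between libraries of 1 group. KHNYN and SDR39U1, also in this window, had 904 to 1262 and 362 to 462 counts. The missing row of RIPK3 is therefore no measurement of its level, and its response was not analysed here.

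DSTYK, a dual-specificity kinase on chromosome 1 from 205142505 to 205211566, had the highest fitted change of the relatives. Its raw counts were 818, 798 and 754 in A375neg and 978, 750 and 899 in A375RIPK4.KO, or 715 to 818 and 783 to 1069 after normalization. Replicates 1 and 3 of A375RIPK4.KO lay above every A375neg library, while replicate 2, the library that stood apart above, lay within the A375neg range. The log2 fold change was 0.29 (95% interval 0.03 to 0.54, unadjusted p = 0.0345, adjusted p = 0.131 by edgeR over all 6 libraries), which did not pass the test. Without A375RIPK4.KO replicate 2 it was 0.39 and passed (adjusted p = 0.0126 by edgeR), and over all alternatives run the adjusted p ranged from 0.0126 to 0.313. With the trend on gene length removed, all 6 libraries gave 0.31 (adjusted p = 0.0554 by edgeR).

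LRRK1 lies on chromosome 15 from 100919215 to 101078254 and acts on RAB7A in the endolysosomal system. It had 420, 369 and 391 raw counts in A375neg and 422, 389 and 443 in A375RIPK4.KO, and its normalized groups overlapped, at 340 to 420 and 406 to 461. The log2 fold change of 0.22 (95% interval −0.03 to 0.47, adjusted p = 0.217 by edgeR) did not pass the test with all libraries or without any 1 of them. The upper end of the interval is an increase of 38.3%. With the trend on gene length removed, the log2 fold change was 0.27 (95% interval 0.05 to 0.49, adjusted p = 0.0904 by edgeR). It was 0.28 without A375RIPK4.KO replicate 2 (0.02 to 0.53, adjusted p = 0.127) and 0.30 without A375neg replicate 1 (0.04 to 0.57, adjusted p = 0.146). These intervals lay above 0, and leaving out any other library gave an interval that included 0.

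LRRK2, the Parkinson's disease kinase that phosphorylates RAB8A, RAB10 and RAB12, was the rarest member measured. It lies on chromosome 12 from 40196744 to 40369285 and had 55, 70 and 52 raw counts in A375neg and 38, 51 and 43 in A375RIPK4.KO. The groups overlapped after normalization. The log2 fold change was −0.29 with a wide 95% interval of −0.81 to 0.23 (adjusted p = 0.453 by edgeR), from a decrease of 42.8% to an increase of 17.6%. At this depth neither a moderate decrease nor a small increase of LRRK2 can be told from no change.

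**Figure D1:**
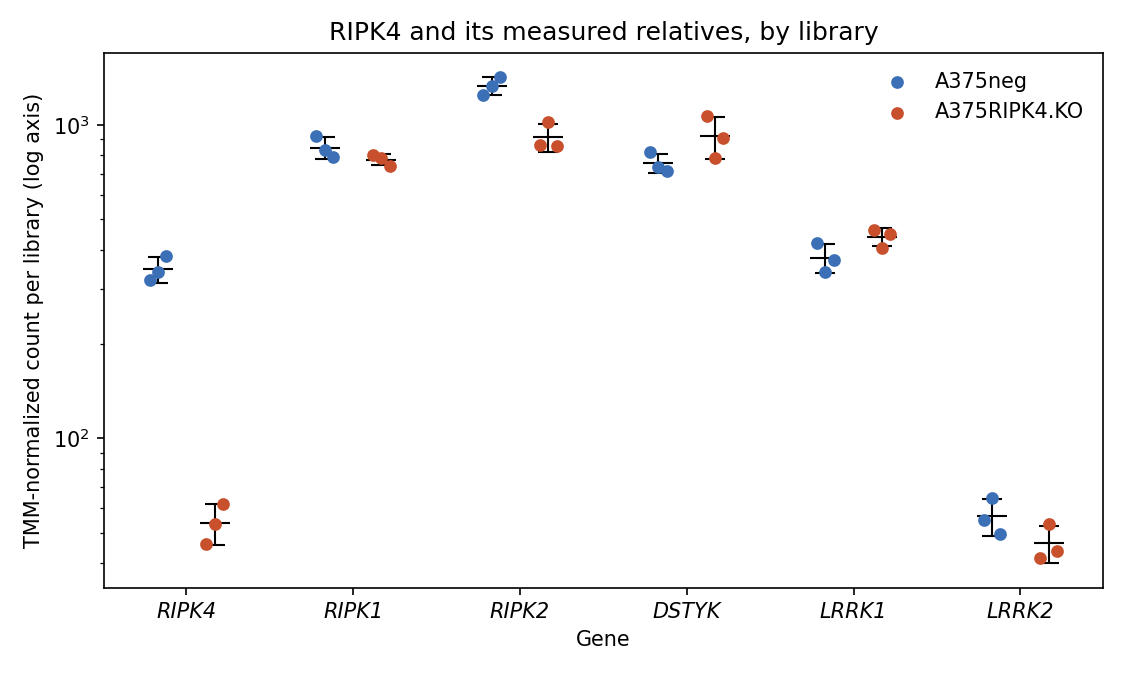
TMM-normalized counts (log axis) of the 6 measured members in the 3 A375neg and 3 A375RIPK4.KO libraries, with 1 point per library and bars for mean ± SD. RIPK4 and RIPK2 are the members whose groups do not overlap, and both are lower in A375RIPK4.KO.

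Over the 6 members tested, 2 passed and both were lower, 1 of them by at least 1.5-fold. Of all 14443 genes, 16.6% passed, 8.40% as higher and 8.24% as lower, and 9.04% passed with at least a 1.5-fold change, 4.39% as higher and 4.65% as lower. RIPK4 is the targeted gene, so the count for its relatives is 1 of 5, and it was lower. The groups did not overlap for 2 of the 6 members, RIPK4 and, as the only relative, RIPK2, against 36.5% of all genes. The median log2 fold change was −0.21 over the members, RIPK4 included, and −0.0047 over all genes tested. Of the 5 relatives alone, the middle value was that of RIPK1, at −0.13. No relative passed as higher when all 6 libraries were used, by edgeR or by DESeq2. In the edgeR fit without length correction, DSTYK was the only member with an unadjusted p under 0.05 and a higher level.

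**Figure D2:**
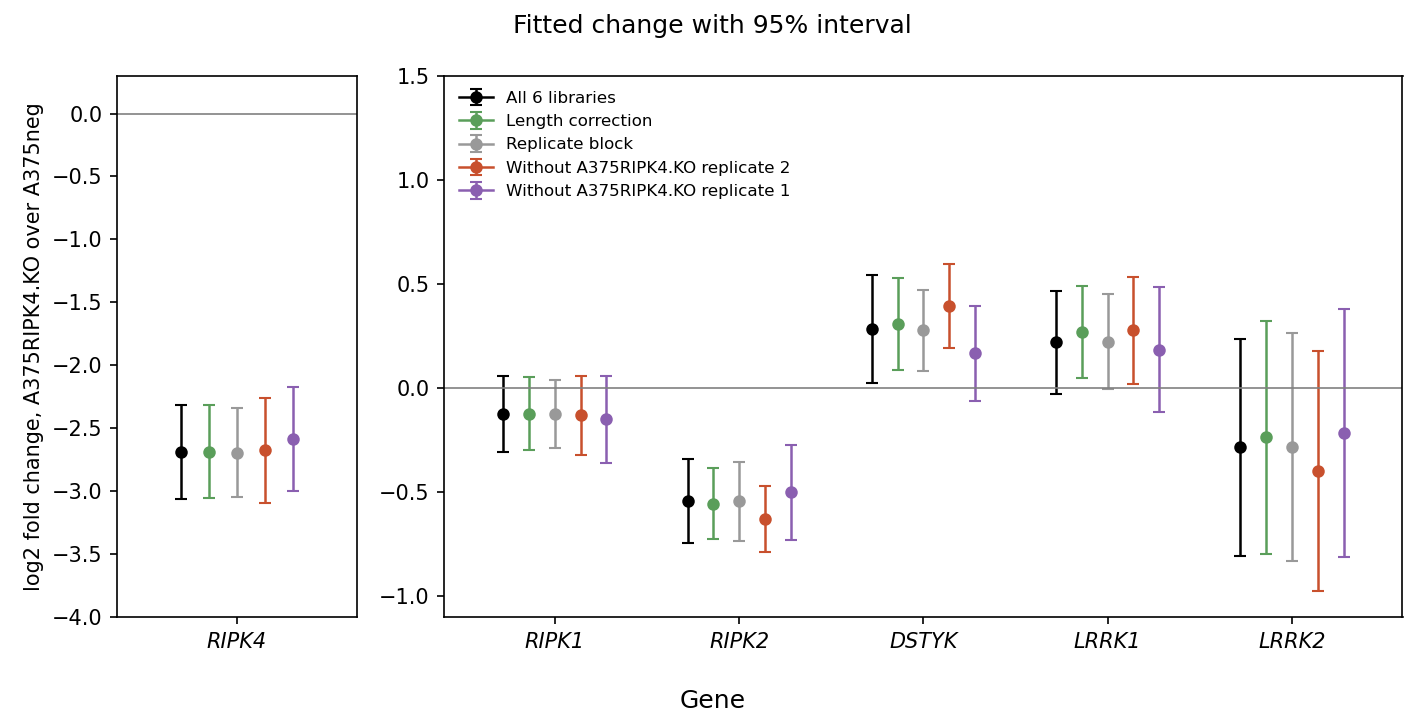
Fitted log2 fold change of A375RIPK4.KO over A375neg with its 95% interval for RIPK4 and, in a panel with its own scale, its relatives, with all 6 libraries and under 4 alternatives. RIPK2 lies below 0 in each setting drawn, and RIPK1 and LRRK2 have intervals that include 0. DSTYK moves from 0.29 to 0.39 when A375RIPK4.KO replicate 2 is left out. For LRRK1 the interval lies above 0 with the length correction and without A375RIPK4.KO replicate 2, and includes 0 in the other settings drawn.

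To compare the members with each other, CPM values (counts scaled to a common library total) were divided by the length of each gene's merged exons in kb. In A375neg the order of these per-length levels was RIPK2 (17.4 ± 1.12, SD, n = 3), RIPK1 (8.16 ± 0.636), DSTYK (3.69 ± 0.267), RIPK4 (3.51 ± 0.331), LRRK1 (0.873 ± 0.0935) and LRRK2 (0.17 ± 0.0232). DSTYK and RIPK4 overlapped, at 3.49 to 3.997 and 3.22 to 3.87, and the other neighbours in this order did not. In A375RIPK4.KO, RIPK4 stood at 0.542 ± 0.0806 and had moved below LRRK1, at 1.02 ± 0.0672, while the order of the other members was the same. The order also held with the length of the longest transcript, which lowers the length of LRRK1 from 17600 to 11632 bases.

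On this per-length scale, RIPK4 made up 9.60%, 10.3% and 11.2% of the summed level of the 6 members in A375neg replicates 1 to 3 and 1.79%, 2.03% and 2.54% in A375RIPK4.KO replicates 1 to 3. The summed level of the 5 relatives was 30.3 ± 0.35 (SD, n = 3) in A375neg and 25.1 ± 1.03 (SD, n = 3) in A375RIPK4.KO, and every A375RIPK4.KO library was below every A375neg library. The sum follows its most abundant gene, RIPK2, whose mean per-length level dropped by 5.47, more than that of RIPK4 itself, which dropped by 2.96. The means of DSTYK and LRRK1 were higher by 0.808 and 0.144, and neither gene passed the test with all 6 libraries. These sums are given as values and were not tested.

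**Figure D3:**
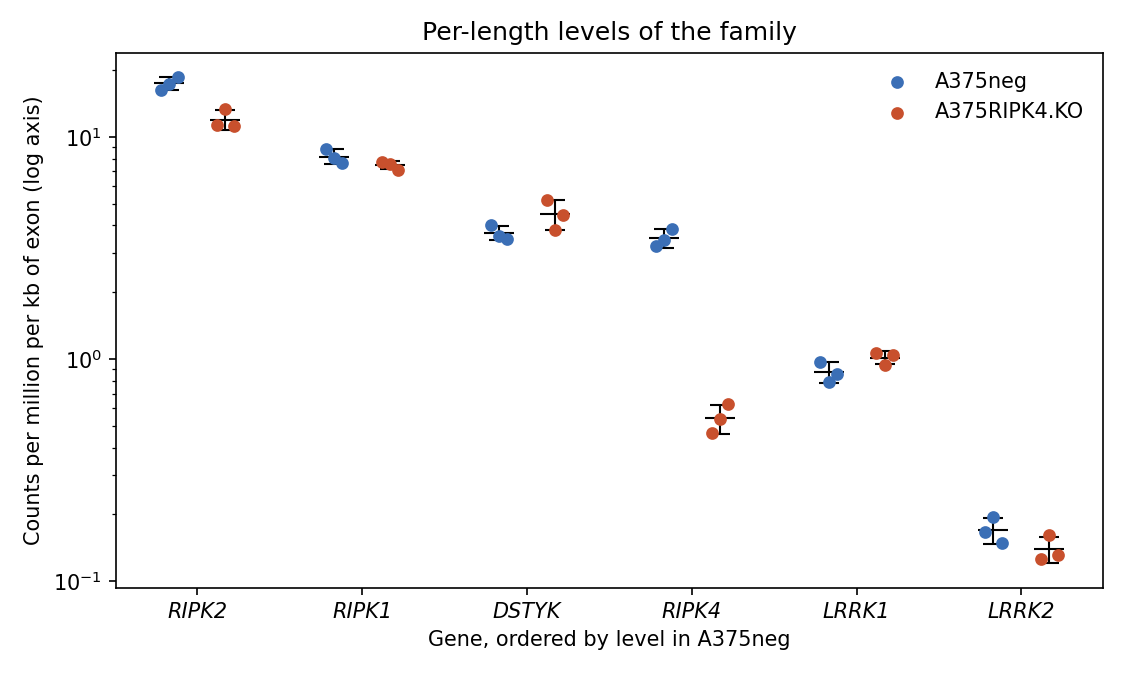
CPM per kb of exon (log axis) of the 6 measured members, ordered by their level in A375neg, with 1 point per library and bars for mean ± SD. RIPK4 drops from 3.51 to 0.542 and passes below LRRK1, while RIPK2 remains the most abundant member in both groups.

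The genes around RIPK4 were examined next, to see whether the decrease extended to the rest of the locus. The table lists 17 other genes within 1 Mb of RIPK4, and 9 had enough counts to be tested. Of these 9, 1 was higher and 1 was lower, neither by 1.5-fold, against 16.6% of all genes. BACE2, a membrane protease at −599 kb, where minus stands for the side nearer the start of the chromosome, had 3726, 4071 and 4265 raw counts in A375neg and 2690, 3002 and 3135 in A375RIPK4.KO. Its log2 fold change was −0.32 ± 0.06 (SE of the fit, adjusted p = 0.00831 by edgeR). MX1, an interferon-induced antiviral GTPase at −347 kb, had 175, 240 and 178 raw counts and then 257, 279 and 262 (log2 fold change 0.57, standard error 0.14, adjusted p = 0.0262 by edgeR). The call for MX1 was lost without A375neg replicate 1 or 3 or without A375RIPK4.KO replicate 1 or 3, with an adjusted p of up to 0.0914 by edgeR.

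Closer to RIPK4 than MX1, no tested gene passed. PRDM15, a zinc finger gene 112 kb away, had 317, 331 and 344 raw counts in A375neg and 317, 207 and 306 in A375RIPK4.KO (log2 fold change −0.12, adjusted p = 0.68 by edgeR). Without A375RIPK4.KO replicate 2, the log2 fold change of PRDM15 was 0.06 (adjusted p = 0.78 by edgeR). ZBTB21, 243 kb away, had 779 to 843 and 667 to 792 (log2 fold change 0.00, adjusted p = 0.983 by edgeR). The non-coding gene LOC102724800 lies 0.321 kb from RIPK4 on the other strand and had 27, 18 and 4 raw counts in A375neg and 7, 19 and 14 in A375RIPK4.KO, too few to tell a change. MX2, farther out than MX1 at −405 kb, was at 2427 to 2783 and 2234 to 2551 (log2 fold change 0.05) and did not pass. ABCG1 (0.93, adjusted p = 0.0569 by edgeR), PDE9A (−0.51, adjusted p = 0.0646) and SLC37A1 (−0.41, adjusted p = 0.393), which lie farther out, did not pass. PDE9A passed without A375RIPK4.KO replicate 2 (−0.57, adjusted p = 0.0481 by edgeR). ABCG1 passed without A375neg replicate 1 (1.23, adjusted p = 0.0286) and with the trend on gene length removed (0.95, adjusted p = 0.045). The 8 genes not tested had 0 to 19 counts per library. The change of RIPK4 was thus larger than that of each tested neighbour, and its interval did not reach any of their fitted values.

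**Figure D4:**
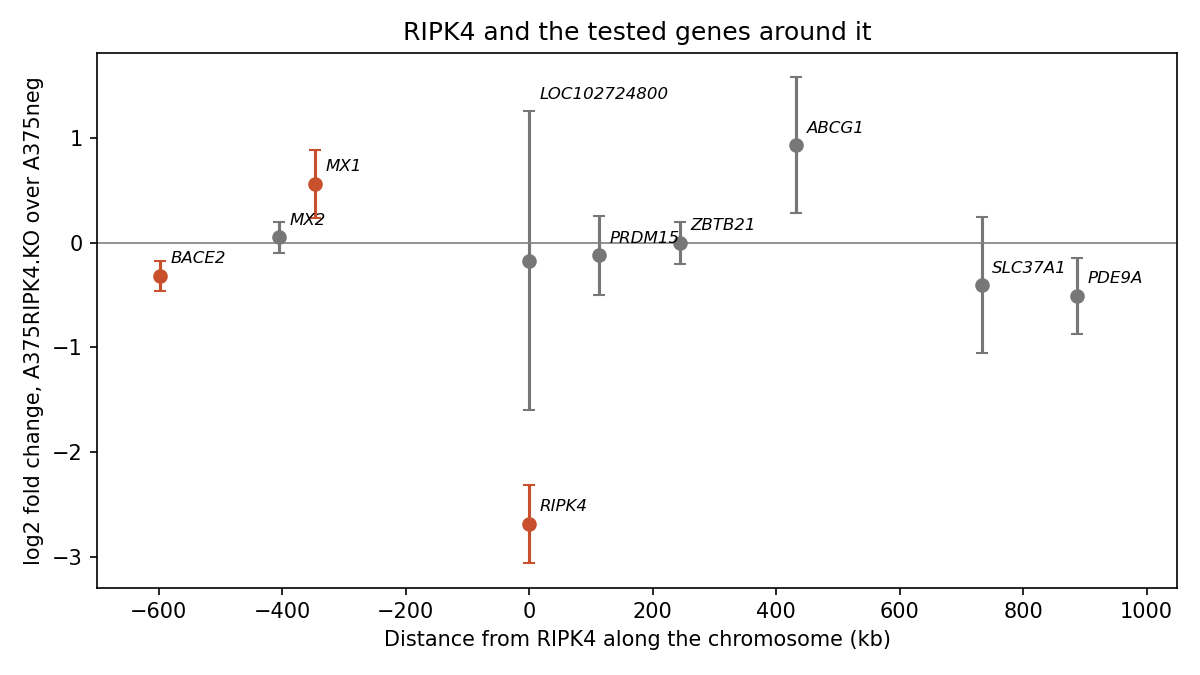
Fitted log2 fold change of A375RIPK4.KO over A375neg, with its 95% interval, against the distance from RIPK4 in kb, for RIPK4 and the 9 tested genes within 1 Mb. Colour marks an adjusted p under 0.05, and RIPK4 at −2.69 lies below all neighbours, whose values run from −0.51 to 0.93.

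Genes whose profile over the 6 libraries was most like that of RIPK4 were sought by comparing it with 10733 protein-coding genes whose mean was 50 counts or more, using the root mean square difference of log2 CPM after centring each gene. The 5 nearest were TGFA, an EGF receptor ligand (0.11), CD74, the invariant chain of MHC class II (0.12), AKR1C2, a steroid-reducing enzyme (0.15), CHRM3, a muscarinic receptor (0.16), and ABCC3, an efflux transporter (0.17). TGFA had 8595, 9771 and 9744 raw counts in A375neg and 1319, 1323 and 1534 in A375RIPK4.KO, a log2 fold change of −2.62. CD74 had a log2 fold change of −2.81, AKR1C2 of −2.56, CHRM3 of −2.73 and ABCC3 of −2.38. Such a likeness reflects the step between the 2 groups for the most part, and these genes share the same libraries with RIPK4.

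Of 12 genes for partners, substrates and regulators of RIPK4, 9 are listed and 5 had enough counts to be tested. Of these 5, 1 passed, which is 20% and near the 16.6% of all genes. PRKCD, a protein kinase C isoform that binds RIPK4, fell from 1281, 1685 and 1565 raw counts in A375neg to 921, 1087 and 1079 in A375RIPK4.KO. Its log2 fold change was −0.42 ± 0.09 (SE of the fit, adjusted p = 0.0109 by edgeR). No library of the 2 groups overlapped, but the call was lost without A375neg replicate 2 (adjusted p = 0.0562 by edgeR) or replicate 3 (0.0524). The Wnt signal genes DVL1 (log2 fold change 0.22, adjusted p = 0.0574 by edgeR), DVL2 (0.08), DVL3 (−0.10) and CTNNB1 (−0.34, adjusted p = 0.113) did not pass. The keratinocyte partners with a row, and the related kinase ANKK1, were at the floor of the assay in both groups. GRHL3, a transcription factor of the epidermis, PKP1, a desmosome protein, and ANKK1, the other ankyrin-repeat kinase of this type, had group means of 1.02 to 4.94 normalized counts. TP63 and PRKCB have no row, and LRP6 is listed only as a scaffold copy with 20 to 66 counts, which was not used.

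Of the 38 genes of TNF receptor and necroptosis complexes, 37 were tested and 10 passed, 5 higher and 5 lower, against 16.6% of all genes, with a median log2 fold change of 0.04. Among receptors and NF-kB-linked inhibitors, TNFRSF1A, the main TNF receptor, was at 3526 ± 230 normalized counts in A375neg and fell to 2560 ± 136 in A375RIPK4.KO (SD over 3 replicates each, log2 fold change −0.46, adjusted p = 0.00207 by edgeR). BIRC3, an inhibitor of apoptosis that ubiquitinates RIPK1, fell from 1069 ± 110 to 782.0 ± 20.7 (−0.45, adjusted p = 0.00674), and the death receptor FAS fell from 638.2 ± 63.8 to 486.3 ± 7.07 (−0.39, adjusted p = 0.0183). The call for FAS was lost without A375neg replicate 2 or 3 or A375RIPK4.KO replicate 1 or 3, with an adjusted p of 0.0523 to 0.0935 by edgeR. TNFRSF10B (−0.30) and TAB3 (−0.28) passed as lower too, but neither did so without A375neg replicate 1 or 2. These decreases were smaller than 1.5-fold, and none of the 5 genes had overlapping groups. The groups did not overlap for 36.5% of all genes either. The 5 genes were picked because they passed the test, so their separate groups add no support of their own.

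Higher in A375RIPK4.KO were CFLAR, the decoy of caspase-8 that restrains death receptors, at 339.2 ± 8.59 and 466.0 ± 48.0 normalized counts (log2 fold change 0.46, adjusted p = 0.0161 by edgeR), and the chaperone HSP90AA1, at 104093 ± 3212 and 135946 ± 5027 (0.39, adjusted p = 0.00243). The call for CFLAR was lost without any 1 A375neg library and without A375RIPK4.KO replicate 1 or 3, with an adjusted p of 0.0535 to 0.0627 by edgeR. TRAF2 (0.34) and BIRC2 (0.26), which act beside RIPK1 in the receptor complex, passed as higher as well. Neither of these 2 passed without A375neg replicate 1 or 2. Without A375neg replicate 3 or A375RIPK4.KO replicate 3, TRAF2, BIRC2, TNFRSF10B and TAB3 did not all pass either. Only 4 genes of the list passed in each of those fits, TNFRSF1A, BIRC3 and HSP90AA1 among them. RNF31, the catalytic subunit of the linear ubiquitin ligase, had 26, 28 and 28 raw counts in A375neg and 24, 83 and 189 in A375RIPK4.KO, and its groups overlapped (log2 fold change 1.96, adjusted p = 0.0497 by edgeR). It lies in the window of low and uneven counts around RIPK3, and without A375RIPK4.KO replicate 3 its log2 fold change was 1.11 and no longer passed (adjusted p = 0.184 by edgeR). The call was also lost without any 1 A375neg library (0.139 to 0.141) and with the replicate number as a block (0.0582). MLKL, the pore-forming effector of necroptosis, had 1045, 1192 and 1102 raw counts and then 1003, 1066 and 1094 (log2 fold change 0.06, adjusted p = 0.582 by edgeR). CASP8 (0.25, adjusted p = 0.14), TLR3 (−0.53, adjusted p = 0.0552) and TNFAIP3 (−0.36, adjusted p = 0.0682) did not pass, and ZBP1 has no row. The number that passed was 3 to 4 without any 1 A375neg library and 4 without A375RIPK4.KO replicate 3, and it was 12 without A375RIPK4.KO replicate 2. Calls over all genes moved as well, to 1526 to 1653 without any 1 A375neg library, of 14835 to 14867 tested. They were 1731 of 14904 without A375RIPK4.KO replicate 3 and 2952 of 14931 without A375RIPK4.KO replicate 2.

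In the NOD receptor and RIPK2 pathway, 7 of 10 genes were tested and 0 passed by edgeR or by DESeq2, while 2 had an unadjusted p under 0.05. These were NOD1, the sensor that signals through RIPK2, at 199.0 and 255.4 normalized counts (log2 fold change 0.36, adjusted p = 0.106 by edgeR), and the ubiquitin ligase ITCH (−0.16, adjusted p = 0.158). XIAP, which ubiquitinates RIPK2, had a log2 fold change of −0.05. NOD2, the other sensor, had group means of 1.26 and 4.25 normalized counts and was not tested. With 16.6% of all genes passing, 0 of 7 is near the background.

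Of 18 LRRK substrates and effectors, all were tested, and 2 passed, 1 higher and 1 lower, which is 11.1% against 16.6% of all genes. RAB3B, a RAB GTPase of regulated exocytosis and a LRRK2 substrate, rose from 193, 214 and 270 raw counts to 860, 789 and 930, a 4.19-fold increase (log2 fold change 2.07, standard error 0.12, adjusted p = 8.71e-06 by edgeR). Every A375RIPK4.KO library lay above every A375neg library. The other RAB substrates did not pass, with RAB10 at 0.22 (adjusted p = 0.058 by edgeR), RAB8A at −0.09, RAB12 at 0.15, RAB35 at 0.09 and RAB29 at −0.20, and the LRRK1 substrate RAB7A stood at −0.09. The median of the list was −0.06, and 4 genes passed without A375RIPK4.KO replicate 2. In that fit 2952 of all 14931 genes tested passed.

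Among 20 tested kinases of the wider tyrosine kinase-like group, to which the receptor-interacting kinases belong, 3 passed, none by 1.5-fold, which is 15% and near the 16.6% of all genes. MAP3K20 stood at 896.0 ± 28.2 normalized counts in A375neg and rose to 1161 ± 20.2 in A375RIPK4.KO (SD over 3 replicates each, log2 fold change 0.37, adjusted p = 0.00383 by edgeR), MAP3K11 rose from 3816 ± 142 to 4564 ± 328 (0.26, adjusted p = 0.0326) and MAP3K12 fell from 644.5 ± 48.1 to 508.5 ± 16.7 (−0.34, adjusted p = 0.0233). All 3 are mixed-lineage kinases or close to them, a kind of kinase that acts upstream of JNK and p38. MAP3K9 (0.13), MAP3K10 (−0.17), MAP3K13 (−0.14) and MAP3K21 (−0.08) are of the same kind and did not pass. The call for MAP3K11 was lost without any 1 A375neg library or A375RIPK4.KO replicate 3 (adjusted p of 0.0713 to 0.139 by edgeR), and that for MAP3K12 without A375neg replicate 1 or 3 or A375RIPK4.KO replicate 1 or 3 (0.0524 to 0.0994). The number that passed was 1 without A375neg replicate 1 or without A375RIPK4.KO replicate 3. Those fits called 1584 of 14859 and 1731 of 14904 genes in all. The RAF kinases ARAF (0.08) and BRAF (−0.21), and IRAK1 (0.07), IRAK4 (−0.13) and ILK (0.11) did not pass.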

How the data were processed

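RNA of 3 A375neg and 3 A375RIPK4.KO samples was poly(A)-enriched, made into strand-specific libraries and sequenced as paired ends by a provider. The authors deposited 1 table with raw counts per gene, the unit used here, beside scaled counts and the results of their own test (fold changes, p-values), which were not used. The submitters' processing notes name cutadapt, FastQC, HISAT2, HTSeq and DESeq2, without versions, and the build GRCh38.p13. The strand setting of the counting is not given in the sources used here. Of the gene names, 20851 are listed, some only as copies on scaffolds.

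Counts were tested in R 4.3.3 with edgeR 4.0.16 (TMM, filterByExpr, quasi-likelihood test, Benjamini-Hochberg adjustment), which left 14443 genes. Intervals are 95% t intervals from the fit. Exon lengths came from GENCODE release 29, and proteins translated from it were aligned with Biopython 1.88 (BLOSUM62, gap penalties 11 and 1). Gene types came from RefSeq. An exon length was found for 92.8% of the tested genes. The length correction removed each library's loess trend of log2 CPM (prior count 2) on length.

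Named were the 7 members, tested neighbours within 1 Mb, up to 3 genes per list and direction that passed, ANKK1, MLKL and the 5 genes nearest to RIPK4. Others were named after their values were seen. A few list and marker genes are counted in their lists but not reported by name here. The members and lists were chosen with earlier results of these data known, and the lists were written from general knowledge. A single gene in 3 against 3 libraries cannot go below p = 0.1 in an exact permutation test, so p-values come from the edgeR model. The study calls the replicates biological, but the labels do not say whether the replicates were separate cultures, so p-values measure the spread between these samples, which may be technical. The steps were checked on simulated counts. Figures were drawn with matplotlib 3.10.9.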

Additional observations from a re-analysis of the deposited data

How the results depend on the processing

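RIPK4 and RIPK2 passed the test and kept their direction under DESeq2 1.42.0, edgeR with the size factors of DESeq2, all genes kept regardless of counts, the replicate number as a block, the length correction, summed scaffold copies and each library left out, and RIPK1, LRRK1 and LRRK2 kept their direction and did not pass under any of these. With 1 library left out, the log2 fold change ran from −2.80 to −2.59 for RIPK4, −0.63 to −0.49 for RIPK2, −0.17 to −0.06 for RIPK1, 0.17 to 0.39 for DSTYK, 0.15 to 0.30 for LRRK1 and −0.40 to −0.17 for LRRK2. DSTYK passed only without A375RIPK4.KO replicate 2, at 0.39. Requiring a 1.5-fold change as well left 1 member, 0 RIPK4 partners, 1 gene of the TNF receptor list and 2 of the LRRK list. It left 0 genes of the NOD receptor list, 0 other tyrosine kinase-like kinases and 0 neighbours, against 9.04% of all genes. RIPK4 partners that passed, 1 in the fit reported, were 3 with DESeq2, 3 with the replicate block, 2 with the length correction and 0 to 2 with 1 library left out. Among all genes, DESeq2 called 2636 of 16772, the replicate block 2549 of 14443 and the length correction 2776 of 14443. With 1 library left out, 3 to 12 genes of the TNF receptor list, 2 to 4 of the LRRK list, 1 to 3 other tyrosine kinase-like kinases and 1 to 3 neighbours passed. Calls over all genes ran from 1526 to 2952 in these same fits, of 14827 to 14931 tested. The cause of these shifts was not tested.

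The labels do not say whether samples with the same replicate number were paired. Their deviations from the group means correlated at 0.08, 0.04 and −0.01, and those of the other pairs at −0.10 to 0.07. Deviations within a group of 3 are tied to each other, so these values cannot decide whether samples were paired. The replicate block gave a log2 fold change of −2.69 for RIPK4, and 2549 genes passed in all, against 2403 without it. Over all genes, leaving out 1 library gave 1526 to 2952 calls, the most without A375RIPK4.KO replicate 2 and the fewest without A375neg replicate 2. The per-length levels in A375neg with the longest transcript, an alternative chosen after seeing the data, were 21.04 for RIPK2, 1.32 for LRRK1 and 0.25 for LRRK2. With 38 to 70 counts per library, LRRK2 is limited by depth, and a count of 0 allows up to 3 counts, 0.113 to 0.134 CPM in these libraries, for counting error only.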
